A study of Mus musculus with 2 samples.

Results

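The interferon regulatory factor (IRF) family was measured as 8 genes, Irf1, Irf2, Irf3, Irf4, Irf5, Irf7, Irf8 and Irf9, taken by symbol from the 21461 nuclear protein-coding genes of the gene tables. Total RNA of primary bone marrow cells labelled megakaryocyte, from male adult C57BL/6J mice 5 to 6 weeks old, was sequenced in 2 libraries. The libraries form 1 group with no treatment and no control, and the labels name the same donor for both while numbering them as biological replicates 1 and 2. Each began with 100 ng of RNA depleted of ribosomal RNA, and the stated sizes ran to 1000 nucleotides, starting at 221 in library 1 and at 200 in library 2. The comparisons are therefore between the genes of the family and between library 1 and library 2. Because 1 donor is named for both, the spread between the libraries may be partly technical.

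IRF proteins are transcription factors that share a DNA-binding domain recognising GAAA repeats in interferon-responsive promoters and enhancers. Some members wait in the cytoplasm until a pathogen sensor has them phosphorylated, some carry the signal of interferon receptors, and IRF4 and IRF8 bind DNA largely with partners such as PU.1 and direct the fate of blood cells. In bone marrow, IRF8 is known for favouring monocytes and dendritic cells over granulocytes.

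Summed expected counts, the authors' estimated reads per gene, were 42703213 in library 1 and 50532821 in library 2. Levels are in TPM, a transcript share scaled by transcript length, and for an effective length of 1000 bases 1 TPM stood for 100.2 counts in library 1, against 114 in library 2. The labelled cell type was checked against its markers. The 10 megakaryocyte markers summed to 3.52 TPM in library 1, against 5.46 TPM in library 2, with 1 of 10 at 1 TPM or more in both (Itga2b, 3.26 and 4.89 TPM) and Gp6 at 0 counts. Summed levels of neutrophil markers were 14400 and 13663 TPM (10 of 10 at 1 TPM or more in both libraries), those of monocyte markers 7738 and 10130 TPM (9 of 9) and those of basophil and mast cell markers 210 and 245 TPM (8 of 8). Single genes made up much of the largest sums, S100a8 of the neutrophil list at 7266 and 7929 TPM and Lyz2 of the monocyte list at 5969 and 8031 TPM. The marker lists go against the label, and the libraries are called by their numbers here. In bulk RNA, fewer cells of a type and less RNA per cell cannot be told apart.

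All 8 IRF genes were present at 1 TPM or more in both libraries, as were 42.4% of nuclear protein-coding genes. The median of their mean levels was 21.6 TPM, beside 0.28 TPM over all nuclear protein-coding genes. Together the 8 genes summed to 224.93 TPM in library 1, against 242.43 TPM in library 2. Nuclear protein-coding genes held 24.004% of all TPM in library 1 and 26.799% in library 2, and on a scale over these genes alone the direction turned, with sums of 937 and 905. Irf8 and Irf5 led the family and Irf4 was lowest in both libraries. Of the 7 pairs of neighbours in the order of mean levels, the 2-library ranges overlapped for Irf1 and Irf3, and Irf3 and Irf7 were separated by the narrowest margin, 19.08 against 18.95 TPM.

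**Figure D1:**
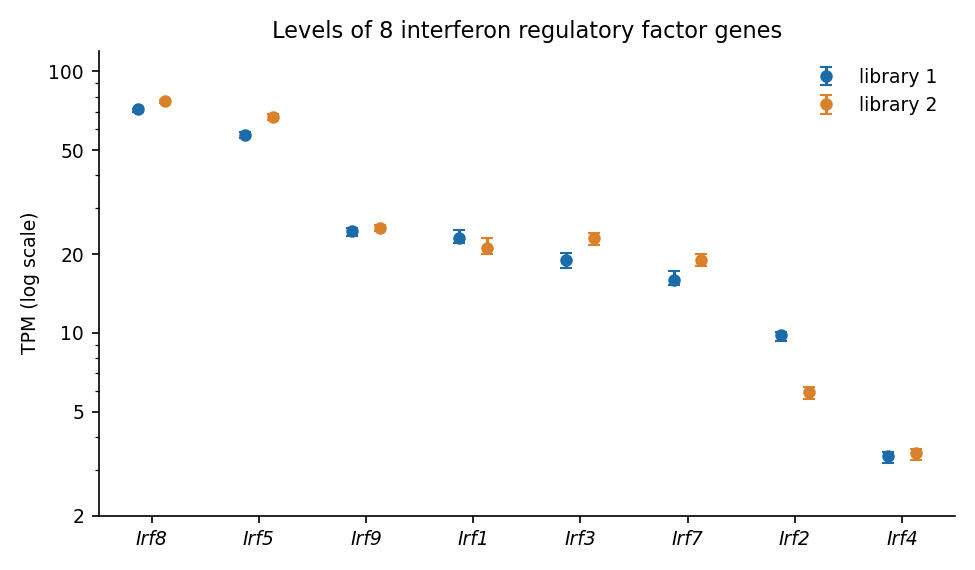
Level of each IRF gene in TPM (log axis), with genes ordered by mean level from left to right and library 1 drawn left of library 2. Points are deposited TPM values and bars the deposited intervals, whose level is not stated; Irf8 and Irf5 stand above 57 TPM in both libraries, 5 genes lie between 5.95 and 25.29 TPM, and Irf4 lies at 3.37 and 3.46 TPM, with Irf2 the gene whose libraries are farthest apart.

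Irf8 encodes the partner-dependent factor of monocyte and dendritic cell development and was the most abundant member. It lies on mm10 at chr8:120736358-120756694, plus strand. Irf8 stood at 71.67 TPM in library 1 and 77.41 TPM in library 2 (74.5 ± 4.06, SD, n = 2), from 18616 and 22920 counts. That placed it at rank 478 of the nuclear protein-coding genes, the 97.8th percentile. It made up 31.9% of the family's summed TPM in each library. The span of the gene, introns included, lies wholly inside a longer annotated gene of the same strand, Gm20388. That gene was assigned 1011 counts in library 1 and 1939 in library 2. The expected counts of Irf8 were whole numbers in both libraries. Whether the exons of these genes share sequence was not examined, and a sharing of reads between them was not tested.

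Irf4, the closest relative of Irf8 and a factor of B cell, plasma cell and T cell differentiation, was at the other end of the order. It lies at chr13:30749226-30766976, plus strand. Irf4 stood at 3.37 TPM in library 1 and 3.46 TPM in library 2 (3.42 ± 0.0636), from 1516 and 1764 counts, at rank 7033. The level of Irf8 was 21.3 times that of Irf4 in library 1 and 22.4 times in library 2.

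Markers of the cell types in which these relatives act were unevenly present. Of 7 markers of conventional dendritic cells type 1, 3 reached 1 TPM in both libraries, led by Naaa at 42.96 and 54.09 TPM. Among receptors of this list, Clec9a was at 2.97 and 2.90 TPM, while Xcr1 was at 0.08 and 0.05 TPM. Markers of conventional dendritic cells type 2 passed that level for 3 of 6 genes, with a summed level of 32.3 TPM in library 1 and 40.4 TPM in library 2, and plasmacytoid dendritic cell markers for 4 of 8, with 19.5 and 17.0 TPM. B cell markers passed it for 1 of 9 genes, with 3.34 and 4.38 TPM, most of it Cd79b at 3.12 and 4.23 TPM. Pax5 and Vpreb1 of that list were at 0 counts. Plasma cell markers passed it for 2 of 6, with 50.3 and 54.3 TPM, most of it Xbp1 at 42.06 and 50.97 TPM. The share of Irf8 or Irf4 RNA that came from each of these cell types was not tested.

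Irf5, which acts downstream of Toll-like receptors and MyD88 in the induction of inflammatory cytokines, was second. It lies at chr6:29526625-29541871, plus strand. Irf5 stood at 57.31 TPM in library 1 and 67.19 TPM in library 2 (62.2 ± 6.99), from 10970 and 14139 counts, at rank 594. The ratio of Irf8 to Irf5 was 1.25 in library 1 and 1.15 in library 2. Irf5 overlaps the antisense gene Tnpo3 over 1045 bases, and whether counting used strand is not stated.

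Irf3 and Irf7 are the factors that TBK1 and related kinases phosphorylate after viral sensing, Irf3 being present before infection and Irf7 being raised by interferon itself. Irf3, at chr7:44997648-45002848 on the plus strand, stood at 19.08 TPM in library 1 and 23.10 TPM in library 2 (21.1 ± 2.84), from 1719 and 2391 counts. Irf7, at chr7:141262706-141266481 on the minus strand, stood at 16.00 and 18.95 TPM (17.5 ± 2.09), from 2015 and 2593 counts. Irf7 had more counts than Irf3 but the lower level per length in each library, with a ratio of Irf7 to Irf3 of 0.839 in library 1 and 0.820 in library 2. The effective length behind the level of Irf3 was 899 bases in library 1 and 908 bases in library 2, with most of its TPM assigned to short transcripts. With protein-coding transcripts alone, the mean level of Irf3 was 6.04 TPM and that of Irf7 9.97 TPM, so the order of these genes turned, although that level of Irf3 leaves out transcripts whose type is not known here. Irf3 also overlaps the antisense gene Bcl2l12 over 1065 bases, which had 350 and 328 counts, and Irf7 the antisense gene Phrf1 over 45 bases.

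Irf9 and Irf1 act downstream of interferon receptors, Irf9 as a DNA-binding partner of STAT2, and Irf1 as an activator induced by interferon gamma. Irf9, at chr14:55603571-55610030 on the plus strand, stood at 24.55 TPM in library 1 and 25.29 TPM in library 2 (24.9 ± 0.523), from 5636 and 6557 counts. Irf1, at chr11:53770014-53778374 on the plus strand, stood at 23.14 and 21.08 TPM (22.1 ± 1.46), from 3489 and 3617 counts. The ranges of Irf9 and Irf1 were close without overlapping, and that of Irf1 overlapped the range of Irf3. Irf9 exceeded its partner Stat2, with a ratio of Irf9 to Stat2 of 5.68 in library 1 and 6.32 in library 2.

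Irf2 binds the same elements as IRF1 and is known mainly as its antagonist. It lies at chr8:46739732-46847458, plus strand. Irf2 stood at 9.81 TPM in library 1 and 5.95 TPM in library 2 (7.88 ± 2.73), from 2221 and 1525 counts. It was the only one of the 8 genes with fewer counts in the deeper library 2. The ratio of Irf1 to Irf2 was accordingly 2.36 in library 1 and 3.54 in library 2, and its corepressor Irf2bp2, at 24.80 and 25.77 TPM, exceeded Irf2 by 2.53 times in library 1 and 4.33 times in library 2.

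The next comparison set library 1 against library 2 for each gene, with a two-sided exact binomial test of counts scaled by the trimmed mean of M-values (TMM). P-values were adjusted by Benjamini-Hochberg over the 12081 nuclear protein-coding genes whose counts averaged 10 or more. The test holds counting error only, so it compares these libraries and no conditions. It called 6 of the 8 IRF genes, 2 higher in library 1 and 4 higher in library 2, against 65.6% of all genes tested (32.6% higher in library 1 and 33.1% higher in library 2).

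Irf2 had the largest ratio of the family, with a log2 ratio of 0.79 ± 0.048 (library 1 over library 2, counting SE) and an adjusted p of 4.05e-60 in the exact binomial test. Its absolute ratio lay at percentile 87.2 of the genes tested, whose median absolute log2 ratio was 0.20. Irf1 was higher in library 1 by a log2 ratio of 0.19 ± 0.034 (exact binomial test, adjusted p = 5.6e-08), although its unscaled counts were slightly higher in the deeper library 2. Irf3 had a log2 ratio of -0.23 ± 0.0456 (exact binomial test, adjusted p = 1.47e-06) and was higher in library 2.

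Irf5, Irf7 and Irf8 were also higher in library 2, with log2 ratios of -0.12, -0.12 and -0.05 and adjusted p-values of 3.37e-10, 0.0109 and 0.000366 in the exact binomial test. For Irf8 the direction depended on the scaling, since TPM over nuclear protein-coding genes alone was 299 in library 1 and 289 in library 2. For Irf4 and Irf9 the log2 ratio was 0.03 in each case, with counting SEs of 0.0505 and 0.0262 and adjusted p-values of 0.650 and 0.350, and their deposited TPM was slightly higher in library 2. When a biological coefficient of variation (BCV) of 0.1 was assumed beyond counting, edgeR's exact test called 12.9% of all genes. Irf2 then remained called with an adjusted p of 0.00263, and the other 7 IRF genes had adjusted p-values of 0.642 to 0.987.

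**Figure D2:**
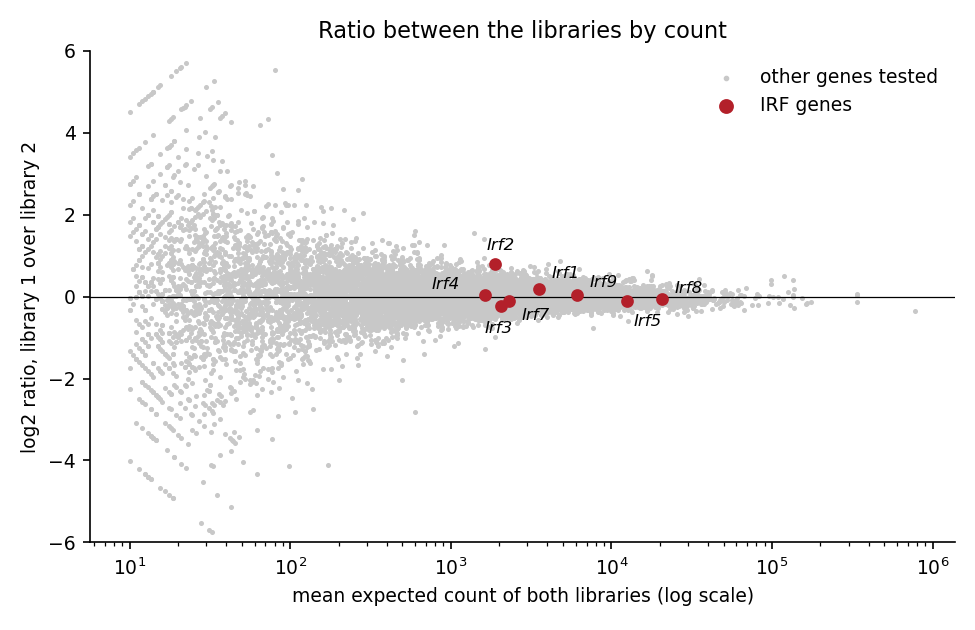
Log2 ratio of library 1 over library 2 on TMM-scaled counts (vertical axis) against the mean expected count of both libraries (horizontal log axis). Red points are the 8 IRF genes and grey points the rest of the 11887 tested genes with counts in both libraries. Not drawn are 194 tested genes with 0 counts in 1 library. Irf2 sits at 0.79, with an absolute ratio at percentile 87.2 of all genes tested, and the other 7 lie between -0.23 and 0.19.

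Markers of other cell types differed between the libraries too. Erythroid markers summed to 47.8 TPM in library 1, against 27.6 TPM in library 2, with 7 of 8 tested genes called higher in library 1 and 0 in library 2. T and NK cell markers summed to 33.8 and 20.2 TPM, with 7 of 10 called higher in library 1 and 1 in library 2. Neutrophil markers were called higher in library 1 for 9 of 10 genes, among them S100a8, whose TPM was 7266 in library 1 and 7929 in library 2. In library 2, 1 was called higher. Monocyte markers were called higher in library 1 for 2 of 9 and in library 2 for 7. Of 6 tested markers of conventional dendritic cells type 1, 3 were called higher in library 1 and 1 in library 2. For type 2 these were 1 and 3 of 5, and for plasmacytoid dendritic cells 4 and 1 of 7. Over all genes tested the shares were 32.6% and 33.1%. The part of these cell types in the ratios of Irf2 and the other IRF genes was not tested.

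Transcript shares, given as the percent of gene TPM in the deposited tables, showed which products of each gene made up these levels. Irf8 and Irf5 came almost wholly from protein-coding transcripts. For Irf4 and Irf2 only protein-coding transcripts were listed, so their coding share was fixed in advance. Irf7 was divided between coding and intron-retaining transcripts, and most of the Irf3 level came from transcripts that the annotation used for names lacks.

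**Figure D3:**
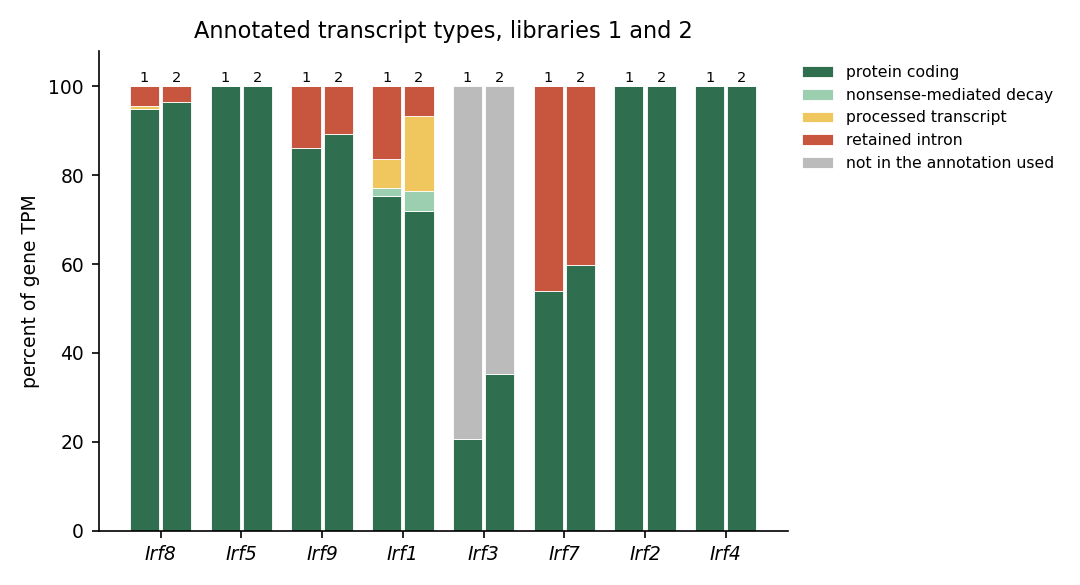
Share of each gene's TPM by annotated transcript type, stacked to 100 percent, with the bar of library 1 left of that of library 2 and genes ordered by mean level. Protein-coding transcripts hold 94.8% and 96.4% of Irf8, intron-retaining transcripts 46.2% and 40.2% of Irf7, and unmatched transcripts 79.3% and 64.8% of Irf3.

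Irf8-201 held 94.71% of Irf8 in library 1 and 95.73% in library 2, and intron-retaining transcripts held 4.50% and 3.54%. Irf5-201 held 80.49% and 87.30% of Irf5, while Irf5-202, which begins at another first exon and also has 1491 coding bases, held 15.97% and 5.99%. Irf2 had a single listed transcript, Irf2-201, so its share could not vary. The leading product was thus the same in both libraries for Irf8 and Irf5.

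Irf4 was shared between transcripts that differ by a 3-base step at the start of 1 exon. Irf4-201 held 56.85% in library 1 and 69.99% in library 2, and Irf4-202 held 43.15% and 30.01%. The deposited TPM intervals of these transcripts overlapped in library 1 (1.36 to 2.33 for Irf4-201 and 1.01 to 1.98 for Irf4-202) and did not in library 2 (2.04 to 2.69 and 0.764 to 1.38). The sequences below, from GENCODE M21 transcripts on GRCm38, show the junction, with capitals marking the CAG codon at chr13:30753445-30753447, plus strand, that Irf4-202 lacks. The codon begins at coding base 493, in frame.
Irf4-201: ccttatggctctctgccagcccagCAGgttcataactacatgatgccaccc
Irf4-202: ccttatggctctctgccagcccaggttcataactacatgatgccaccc

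Irf9 had coding transcripts with different starts. Irf9-202 held 54.37% in library 1 and 55.88% in library 2, Irf9-205 held 25.35% and 30.14%, and Irf9-203 held 6.30% and 3.14%. The intron-retaining Irf9-206 held 9.49% and 8.22%. Irf9-205 begins at a first exon of its own and its annotated coding sequence has 54 more bases at the front, in frame with that of Irf9-202, as the start of each shows (GENCODE M21, with capitals marking the start codon of each transcript and, in Irf9-205, also that of Irf9-202).
Irf9-202: ATGgcctcaggcaaagtacgctgcacccga
Irf9-205: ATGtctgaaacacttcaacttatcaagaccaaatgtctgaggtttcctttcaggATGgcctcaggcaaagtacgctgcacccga
Irf9 also shares 123 bases with its same-strand neighbour Rnf31, which had 1254 counts in library 1 and 1407 in library 2.

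Irf1 kept Irf1-202 as its leading transcript, at 52.92% in library 1 and 66.94% in library 2. Irf1-201, which begins at another first exon and, like Irf1-202, has 987 coding bases, held 15.15% in library 1 and 0% in library 2. The intron-retaining Irf1-210 held 16.47% and 6.65%, the processed transcript Irf1-205 held 6.32% and 16.96%, and Irf1-204 held 5.33% and 1.5%. Coding transcripts as a class held 75.3% in library 1 and 71.9% in library 2. Coding transcripts with the first exon of Irf1-202 held 54.79% and 69.75% of the gene.

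The output of Irf7 was divided among 8 transcripts at 5% or more in either library. The largest estimated share in library 1 was that of the intron-retaining Irf7-211, at 32.27% against 16.54% in library 2. In library 2 it was that of the coding Irf7-201, at 14.64% in library 1 and 23.17% in library 2. Irf7-203, also coding, held 30.45% and 18.68%, and the coding Irf7-202 and Irf7-204 held 3.39% and 10.70%, and 5.36% and 7.24%. In library 1 the deposited TPM intervals of Irf7-211 (4.38 to 5.92) and Irf7-203 (4.21 to 5.37) overlapped. In library 2 that of Irf7-201 (3.491 to 5.265) overlapped those of Irf7-203 (2.997 to 4.005) and Irf7-211 (2.465 to 3.798). Which transcript led was therefore not settled in either library. Among the other intron-retaining transcripts, Irf7-206 held 6.74% and 9.37%, Irf7-209 held 0.40% and 9.67%, and Irf7-210 held 6.76% and 4.63%. Coding transcripts as a class held 53.8% in library 1 and 59.8% in library 2.

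The coding transcripts of Irf7 differ in the middle of the coding sequence, which is 1371 bases long in Irf7-201, 1278 in Irf7-202 and 1275 in Irf7-203. Irf7-202 skips a 93-base exon, chr7:141264223-141264315, and Irf7-203 starts another exon 96 bases later and so lacks chr7:141264560-141264655, both on the minus strand. Capitals mark these stretches in Irf7-201 (GENCODE M21, GRCm38).
Irf7 exon skipped in Irf7-202: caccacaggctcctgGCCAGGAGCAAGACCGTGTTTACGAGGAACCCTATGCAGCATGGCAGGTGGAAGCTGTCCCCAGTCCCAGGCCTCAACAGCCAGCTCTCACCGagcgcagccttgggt
Irf7 exon start absent from Irf7-203: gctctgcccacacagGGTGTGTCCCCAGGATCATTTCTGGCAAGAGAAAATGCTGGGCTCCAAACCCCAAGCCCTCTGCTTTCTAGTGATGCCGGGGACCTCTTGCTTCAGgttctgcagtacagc

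**Figure D4:**
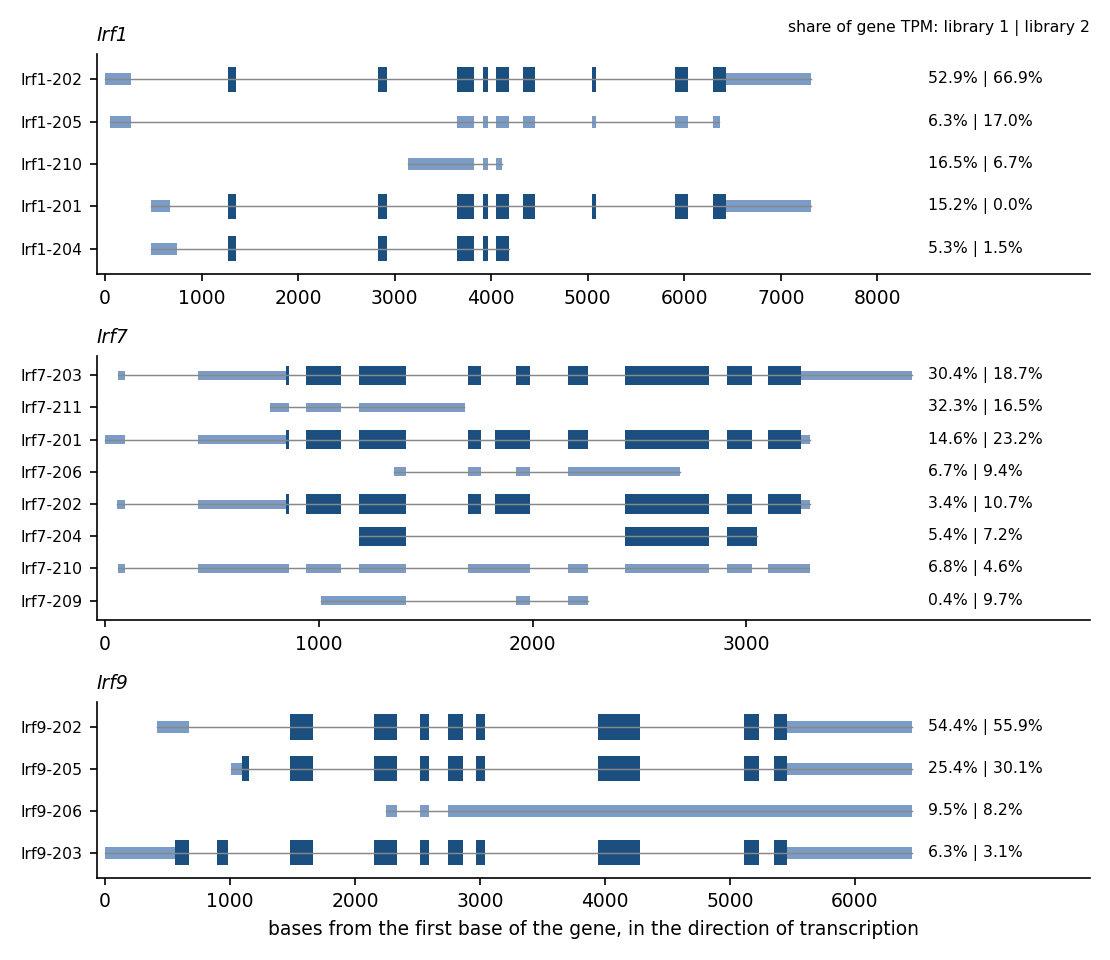
Exons (light) and coding parts (dark) of transcripts with 5% or more of the TPM of Irf1, Irf7 or Irf9 in either library, along bases from the first base of the gene in the direction of transcription. The percentages at the right are shares of the gene's TPM in library 1 and then library 2; the intron-retaining Irf7-211 has 32.3% and 16.5%, and Irf1-201, with a later first exon than Irf1-202, has 15.15% and 0%.

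For Irf3, 9 transcripts were listed and 7 of them had no match in the annotation used. Irf3-201 held 20.67% of Irf3 in library 1 and 23.19% in library 2, and Irf3-202, which like Irf3-201 has 1257 coding bases, held 0% and 12.04%. The unmatched transcripts together held 79.3% and 64.8%. Of these, 5 held 5% or more in either library, and 4 of the 5 were 629 to 869 bases long.

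The start windows of the 8 genes were searched for letters that interferon-responsive factors are known to bind. The search used the RefSeq GRCm38.p6 windows of 250 bases before to 50 bases after each start, on both strands, and a site read on both strands counted once. TTCNNNGAA, the element bound by STAT dimers (GAS), was present in 8.29% of 32817 windows, the core of the interferon-stimulated response element (ISRE; GAAA, any 2 bases, GAAA) in 3.43%, and the composite element of ETS factors and IRF4 or IRF8 (GGAA, any 2 bases, GAAA) in 2.72%. Matches were found in the main windows of Irf1, Irf2 and Irf8. The windows of Irf3, Irf4, Irf5, Irf7 and Irf9, and second windows of Irf1, Irf8 and Irf9, held none of these letters.

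The matches are shown in capitals because these windows start the main transcripts of the most abundant member and of the IRF1 and IRF2 pair. In Irf1 (chr11:53769764-53770063, plus strand) 1 GAS match begins 90 bases before the start. In Irf8 (chr8:120736108-120736407, plus strand) GAS matches begin 171 and 153 bases before the start. In Irf2 (chr8:46739495-46739794, plus strand) a composite match at 247 bases before the start overlaps an ISRE core match at 241 bases, and a GAS match lies at 224 bases. A match describes the letters and not binding.
Irf1 window: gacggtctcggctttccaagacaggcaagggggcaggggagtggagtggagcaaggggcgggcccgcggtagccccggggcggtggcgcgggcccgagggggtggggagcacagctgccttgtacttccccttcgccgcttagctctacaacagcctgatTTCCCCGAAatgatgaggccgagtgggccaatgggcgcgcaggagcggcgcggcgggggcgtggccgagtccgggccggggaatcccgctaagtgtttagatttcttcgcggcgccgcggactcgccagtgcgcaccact
Irf8 window: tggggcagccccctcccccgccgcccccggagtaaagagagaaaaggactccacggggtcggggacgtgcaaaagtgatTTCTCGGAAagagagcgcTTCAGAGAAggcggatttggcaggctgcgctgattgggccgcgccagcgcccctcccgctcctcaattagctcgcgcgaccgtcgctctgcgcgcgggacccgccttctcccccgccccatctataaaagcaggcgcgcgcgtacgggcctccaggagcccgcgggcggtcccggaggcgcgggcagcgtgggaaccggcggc
Irf2 window: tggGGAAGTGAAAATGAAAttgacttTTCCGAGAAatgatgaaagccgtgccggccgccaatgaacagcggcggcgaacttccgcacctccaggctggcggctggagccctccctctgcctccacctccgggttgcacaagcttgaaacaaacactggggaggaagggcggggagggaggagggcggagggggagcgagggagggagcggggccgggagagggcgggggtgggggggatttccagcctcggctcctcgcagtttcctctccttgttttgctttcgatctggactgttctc

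The levels of the IRF genes were then set beside those of their pathway, in lists of textbook roles. Nearly all listed genes that carry signals to and from IRF proteins reached 1 TPM in both libraries, while the interferon genes themselves were near or at 0.

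**Figure D5:**
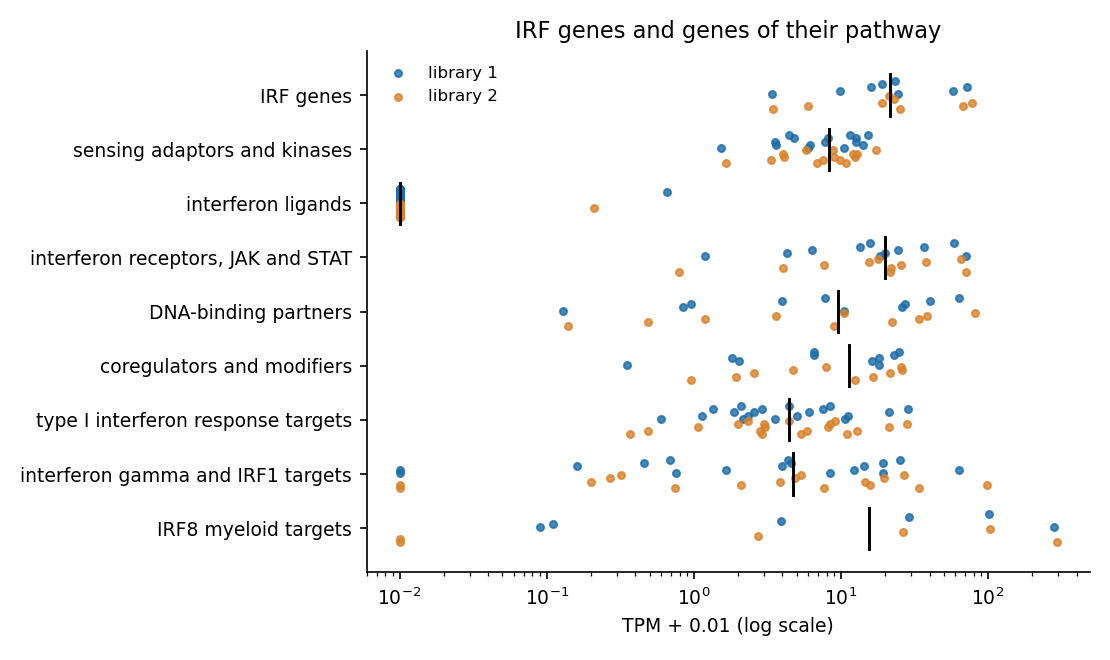
Levels of the IRF genes and of 8 pathway lists as TPM plus 0.01 (log axis), 1 point per gene and library, with library 1 drawn above library 2 within each row. Black lines are medians of mean levels; the IRF genes have a median of 21.6 TPM, the receptor list 20.0 TPM, the type I interferon response targets 4.43 TPM, and the interferon ligands 0 TPM.

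Sensing adaptors and kinases, which activate IRF3, IRF5 and IRF7, reached 1 TPM in both libraries for 15 of 15 genes, with a median of 8.33 TPM. The adaptor Myd88 stood at 15.16 TPM in library 1 and 17.22 TPM in library 2, the kinase Tbk1 at 12.70 and 12.79 TPM, Irak4 at 12.60 and 12.47 TPM, and the nucleic acid sensor Zbp1 at 14.06 and 9.77 TPM. In the exact binomial test 6 of the 15 were called higher in library 1 and 3 higher in library 2, beside 32.6% and 33.1% of all genes tested. Irf5, Irf3 and Irf7 stood above each of these genes in both libraries on the deposited TPM, and the lower levels of Irf3 and Irf7 from known coding transcripts or on the length of 1 coding transcript did not keep this order.

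Of 19 interferon genes, 18 had 0 counts in both libraries, Ifnb1 among them, for which 3 counts would allow 0.0569 TPM in library 1, against 0.0512 TPM in library 2. Ifng, the interferon of T and NK cells, had 64 and 22 counts, or 0.65 TPM in library 1 and 0.20 TPM in library 2. Its log2 ratio was 1.79 ± 0.36 (exact binomial test, adjusted p = 3.31e-07). The T and NK cell markers given above were also higher in library 1, and their part was not tested.

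Receptors, JAK kinases and STAT proteins had a median of 20.0 TPM, with 10 of 11 at 1 TPM or more in both libraries. The receptor chain Ifnar2 stood at 70.63 TPM in library 1 and 70.47 TPM in library 2, Ifngr1 at 58.81 and 65.96 TPM, and the kinase Jak1 at 24.47 and 25.46 TPM. In the exact binomial test 2 of 11 were called higher in library 1 and 6 higher in library 2, beside the same 32.6% and 33.1%. Stat2 was lower than Irf9 in both libraries, at 4.32 and 4.00 TPM.

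DNA-binding partners of IRF4 and IRF8 reached 1 TPM in both libraries for 7 of 10 genes. Spi1, which encodes PU.1, stood at 63.09 TPM in library 1 and 80.97 TPM in library 2, which is 0.880 and 1.05 times the level of Irf8. Jun stood at 40.29 and 38.63 TPM, Junb at 27.21 and 34.12 TPM, and Ikzf1 at 25.82 and 22.16 TPM. BATF proteins are known to pair with IRF4 and IRF8 in T cells and dendritic cells. Batf stood at 7.83 TPM in library 1 and 10.55 TPM in library 2, Batf3 at 0.84 and 0.48 TPM, and Batf2 at 0.12 and 0.13 TPM. Of the 10 partners, 4 were called higher in library 1 and 4 higher in library 2 (32.6% and 33.1% of all genes tested).

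Coregulators and modifiers of IRF proteins had a median of 11.3 TPM, with 9 of 10 at 1 TPM or more in both libraries. Besides Irf2bp2, the chaperone partner Fkbp4 stood at 22.92 TPM in library 1 and 26.06 TPM in library 2, and the IRF4-binding proteins Def6 and Swap70 stood at 18.25 and 21.64 TPM and at 16.32 and 16.56 TPM. Irf2bpl, a relative of Irf2bp2, stood at 0.34 and 0.94 TPM, with a log2 ratio of -1.41 ± 0.14 (exact binomial test, adjusted p = 3.09e-24). Called higher in library 1 were 2 of the 10 genes, and higher in library 2 were 4 (32.6% and 33.1% of all genes tested).

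Targets of type I interferon, which the IRF9 complex and IRF7 are known to drive, reached 1 TPM in both libraries for 17 of 19 genes, with a median of 4.43 TPM. The antiviral GTPase Mx1 stood at 28.57 TPM in library 1 and 28.20 TPM in library 2, the tetherin gene Bst2 at 21.25 and 21.21 TPM, Cmpk2 at 11.11 and 12.83 TPM, and Xaf1 at 10.72 and 10.97 TPM. Called higher in library 1 were 4 of the 19 genes, and higher in library 2 were 11 (32.6% and 33.1% of all genes tested). Oasl1, with 115 and 65 counts, had a log2 ratio of 1.07 ± 0.22 (exact binomial test, adjusted p = 3.95e-06). Ifi44, with 47 and 125 counts, had a log2 ratio of -1.16 ± 0.25 (exact binomial test, adjusted p = 3.31e-06), while its TPM was 1.12 in library 1 and 0.48 in library 2, so its direction turned with the length scaling.

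Targets of interferon gamma and IRF1 reached 1 TPM in both libraries for 11 of 17 genes, with a median of 4.70 TPM. The immunoproteasome genes Psmb8 and Psmb9 stood at 63.66 TPM in library 1 and 98.55 TPM in library 2, and at 19.18 and 33.99 TPM. The peptide transporter Tap1 stood at 25.11 and 26.73 TPM and the GTPase Irgm1 at 19.30 and 19.62 TPM, and Nos2 and Il12b had 0 counts in both libraries. Of 15 tested, 5 were called higher in library 1 and 5 higher in library 2, which is near the 32.6% and 33.1% of all genes tested. Socs1, a feedback inhibitor with 68 and 35 counts, had a log2 ratio of 1.2 ± 0.30 (exact binomial test, adjusted p = 0.000102).

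Myeloid targets of IRF8 reached 1 TPM in both libraries for 4 of 6 genes. The phagocyte oxidase gene Cybb stood at 279.73 TPM in library 1 and 293.56 TPM in library 2. Klf4, a monocyte factor, stood at 28.98 and 26.57 TPM, and Nf1, which restrains RAS, at 3.9 and 2.74 TPM. Cdkn2b was at 0.10 and 0 TPM. The phosphatase gene Ptpn13 had 62 counts in library 1 and 3 in library 2 (0.08 and 0 TPM), with a log2 ratio of 4.62 ± 0.85 (exact binomial test, adjusted p = 1.14e-16). Of 5 tested, 4 were called higher in library 1 and 1 higher in library 2 (32.6% and 33.1% of all genes tested).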

How the data were processed

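The build was mm10 and the annotation GENCODE M4, per the deposited text files. Aligner and quantifier are not given in the sources used here. In the tables, the authors' deposited expected counts are estimated reads per gene or transcript, not normalized. The deposited TPM values are scaled by effective length over all rows, and the deposited percent values are each transcript's share of its gene's TPM. Of 43346 mouse gene IDs among 69691 rows, 42462 matched GENCODE M21 (same build), as did 45 of the 52 transcripts of the IRF genes. IDs were matched without their version, so a matched transcript can differ between the annotations. A transcript of Irf5, for example, has a deposited length of 712 bases but 1482 coding bases in M21. Exons, coding lengths and transcript sequences given here are those of M21, while the shares rest on M4. From the lists, 2 genes were not analysed here. Members and lists were chosen with earlier results of these data known.

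Expected counts were rounded, scaled with TMM (edgeR 4.0.16, R 4.3.3) and compared between libraries with the two-sided exact binomial test at an adjusted p of 0.05, since 1 library on each side leaves no residual degrees of freedom for a quasi-likelihood test. The script was checked on simulated data. DESeq2 1.42.0 size factors, other filters, another set of features and an assumed BCV of 0.1 were alternatives. SEs, p-values of the exact binomial test and 3-count limits cover the counting error of reads only. Several reads can come from 1 molecule, so even that error may be understated. Named pathway genes were the 4 highest of each list, those called with a ratio of 2-fold or more, and, in lists of up to 11 genes, those under 1 TPM in both libraries; interferon genes at 0 counts are given as a count, and a few genes within this rule stay in list counts and medians but are not reported here. Named transcripts held 5 percent or more of the gene's TPM in either library. Marker genes named are among the 3 highest of their list, except Gp6, Xcr1, Pax5 and Vpreb1. These, like Batf, Stat2, Nos2 and Il12b, were chosen after their values were seen.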

Additional observations from a re-analysis of the deposited data

How the results depend on the processing

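The summed level of the IRF genes, 234 ± 12.4 TPM, was 921 when TPM was rescaled over nuclear protein-coding genes, 199 from protein-coding transcripts alone and 212 with counts set on the length of 1 coding transcript, an alternative chosen after seeing the data; with single libraries it was 224.93 to 242.43. The Irf8 share, 31.9%, was 31.7% from posterior mean TPM, 35.8% from protein-coding transcripts alone, 34.9% on the length of 1 coding transcript and 40.8% of summed expected counts, and 31.86% to 31.93% with single libraries; for the count share the cause lies in the missing length scaling, and for the others the cause was not tested.

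Irf8, Irf5, Irf9 and Irf1 kept this order of mean levels under each of these settings and Irf4 stayed lowest, while Irf3 fell below Irf7 on the length of 1 coding transcript (10.6 against 12.7 TPM), from known protein-coding transcripts alone (6.04 against 9.97 TPM) and by counts. Genes called between the libraries numbered 7931, and 6749 to 9230 under other normalizations, filters and features, with 6 IRF genes called each time. At an assumed BCV of 0.1, 1556 genes and 1 IRF gene, Irf2, were called, as spread beyond counting was added. The 8 count ratios kept their sign under these count settings. On TPM over nuclear protein-coding genes the direction turned for Irf8 (299 in library 1 and 289 in library 2) and for the sum (937 and 905), and on deposited TPM for Irf4 and Irf9, which were not called. For single genes and transcripts, leaving single libraries aside, 102 values stayed within 1 SD or on their side of the threshold, 31 moved further, and 5 were no longer called, namely Irf1, Irf3, Irf5, Irf7 and Irf8 at the assumed BCV. With 2 libraries, a single library lies within 1 SD of the mean by arithmetic and says nothing about stability. No paired analysis was possible because the libraries form 1 group. The SD rests on 1 difference, and transcript shares are model estimates without a count test.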
